A study of Mus musculus with 4 samples.

Results

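The snoRNA host genes are long non-coding RNA genes whose introns hold small nucleolar RNAs (snoRNAs). The list held 10 names: Gas5, Snhg1, Snhg3, Snhg4, Snhg5, Snhg6, Snhg8, Snhg12, Snhg15 and Dancr. A name was counted as present where the identifier that GENCODE release M21 gives it had a row in the deposited table. Of the 20065 genes of that table, 6 were members: Gas5, Snhg3, Snhg5, Snhg6, Snhg12 and Snhg15. Snhg1, Snhg8 and Dancr carry identifiers without a row, and Snhg4 was not found by symbol in the annotation, so these 4 are not analysed here. GENCODE M21 matched 19782 of the 20065 identifiers. These 4 genes may therefore have rows under other identifiers, which was not tested.

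RNA-seq was performed on 4 libraries of cultured muscle stem cells (MuSC, or satellite cells) from limb and trunk muscles of adult C57BL/6 mice, 2 control (Ctrl) and 2 mutant (Prmt5sKO). The sample titles call the groups WT and PRMT5 KO. The paper gives its controls as Pax7CreERT2/Prmt5+/loxP and its mutants as Pax7CreERT2/Prmt5loxP/loxP. Both groups were treated with tamoxifen (TAM, given to the cultured cells in its hydroxylated form). By these genotypes all cells carried the tamoxifen-inducible Cre driven from Pax7, the transcription factor that marks satellite cells. Control cells then kept 1 wild-type allele of Prmt5 and had 1 allele open to recombination. The comparison asks which transcripts differ after loss of Prmt5, an enzyme that dimethylates arginines symmetrically. Nothing in the labels says whether the 2 libraries of a group came from separate animals, so the p-values below measure only the spread between these libraries, which may be technical.

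A host transcript is spliced, and the snoRNAs are trimmed out of its introns and assembled with proteins into particles (snoRNPs) that guide 2′-O-methylation (C/D box snoRNAs, bound by fibrillarin) or pseudouridylation (H/ACA box snoRNAs, bound by dyskerin) of ribosomal and spliceosomal RNA. The spliced exons of several hosts have no long open reading frame and are known to be degraded by nonsense-mediated decay (NMD), the pathway that removes transcripts with early stop codons. Several hosts, like ribosomal protein genes, are known to begin with a 5′ terminal oligopyrimidine (TOP) tract, a C followed by a run of C and T, which ties the translation of such transcripts to cell growth. Gas5 was named for its accumulation in growth-arrested cells.

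The start sites are shown because several hosts, like ribosomal protein genes, are known to begin with such a tract. Each line holds 30 bases before and 30 bases after the start site that RefSeq gives (GRCm38.p6), and capitals mark a C followed by at least 4 C or T, with that C lying no more than 10 bases before and no more than 15 bases after the start. Snhg6 has no sequence here.
Gas5, upstream start, chr1:161034571-161034630, plus strand: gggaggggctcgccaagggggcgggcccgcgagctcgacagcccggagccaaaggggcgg
Gas5, downstream start, chr1:161035136-161035195, plus strand: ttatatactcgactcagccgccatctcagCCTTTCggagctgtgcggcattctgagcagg
Snhg12, chr4:132308648-132308707, plus strand: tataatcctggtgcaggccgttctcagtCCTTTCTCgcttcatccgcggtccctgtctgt
Snhg3, chr4:132353657-132353716, minus strand: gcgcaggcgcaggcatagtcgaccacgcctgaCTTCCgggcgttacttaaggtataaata
Snhg5, chr9:88522868-88522927, minus strand: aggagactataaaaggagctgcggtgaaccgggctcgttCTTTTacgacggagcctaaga
Snhg15, chr11:6528731-6528790, minus strand: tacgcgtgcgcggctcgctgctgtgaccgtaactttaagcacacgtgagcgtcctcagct
The tract was found on the sense strand at 4 of the 6 start sites, among them the downstream start of Gas5 and the starts of Snhg12, Snhg3 and Snhg5. It was not found at the upstream start of Gas5 or at Snhg15. At Snhg3 and Snhg5 it began past the start, at base 3 and at base 10. By the same search it was held by 34.9% of 32851 promoters and by 60.6% of 66 promoters of cytosolic ribosomal protein genes. A match is a stretch of letters and not a measured start.

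Of the snoRNAs inside the members, Snord87 of Snhg6 and Snora16a of Snhg12 had rows of their own, and their sequences are shown because their values are set beside those of the hosts further on. Capitals mark the C box (TGATGA) and the D box (CTGA) of Snord87, found together near the ends of 20.5% of the 1507 snoRNA genes annotated, and the ACA box of Snora16a, found 3 bases from the end of 272 of them (GENCODE M21 transcripts, GRCm38, written as DNA).
Snord87, chr1:9942463-9942549, minus strand: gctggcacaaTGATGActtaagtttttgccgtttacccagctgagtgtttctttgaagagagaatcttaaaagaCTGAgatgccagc
Snora16a, chr4:132309465-132309600, plus strand: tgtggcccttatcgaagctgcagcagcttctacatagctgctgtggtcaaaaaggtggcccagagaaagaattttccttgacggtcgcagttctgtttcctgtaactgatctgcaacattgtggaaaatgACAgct

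The deposited values are group means of counts divided by size factors. Because every library adds its count times a fixed step to that mean, the pair of counts behind a mean could be solved for, and this gave whole numbers for 100% of the genes, to a relative tolerance of 1e-12. In Ctrl a second pair came nearly as close for 1 gene, a very abundant one that is no snoRNA host. Libraries are named here by depth, since no replicate number stands in the columns, and wherever a pair of values is given for a group the deeper library comes first. Recovered counts summed to between 13240754 (shallower Ctrl) and 20047430 (deeper Prmt5sKO) per library. Values below are counts scaled with TMM factors (trimmed mean of M-values), called normalized counts, unless stated otherwise. As a check of the labels, Prmt5 had 2273 and 2906 normalized counts in Ctrl and 244 and 202 in Prmt5sKO.

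Of the 6 members, 5 passed the filter of a mean normalized count of at least 5 and were tested. All 5, Gas5, Snhg5, Snhg6, Snhg12 and Snhg15, had less in each Prmt5sKO library than in either Ctrl library, at between 54.0% (Snhg5) and 84.8% (Snhg15) of the control mean. None of these differences passed the test over all genes, and in bulk RNA fewer cells of a type cannot be told apart from less RNA per cell. Non-overlap in this direction held for 23.6% of the 16212 genes tested. The median log2 fold change (Prmt5sKO minus Ctrl) over the 5 genes was -0.64, beside 0.02 over all genes tested and -0.23 over the 1138 lincRNA, antisense and processed transcript genes tested.

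**Figure D1:**
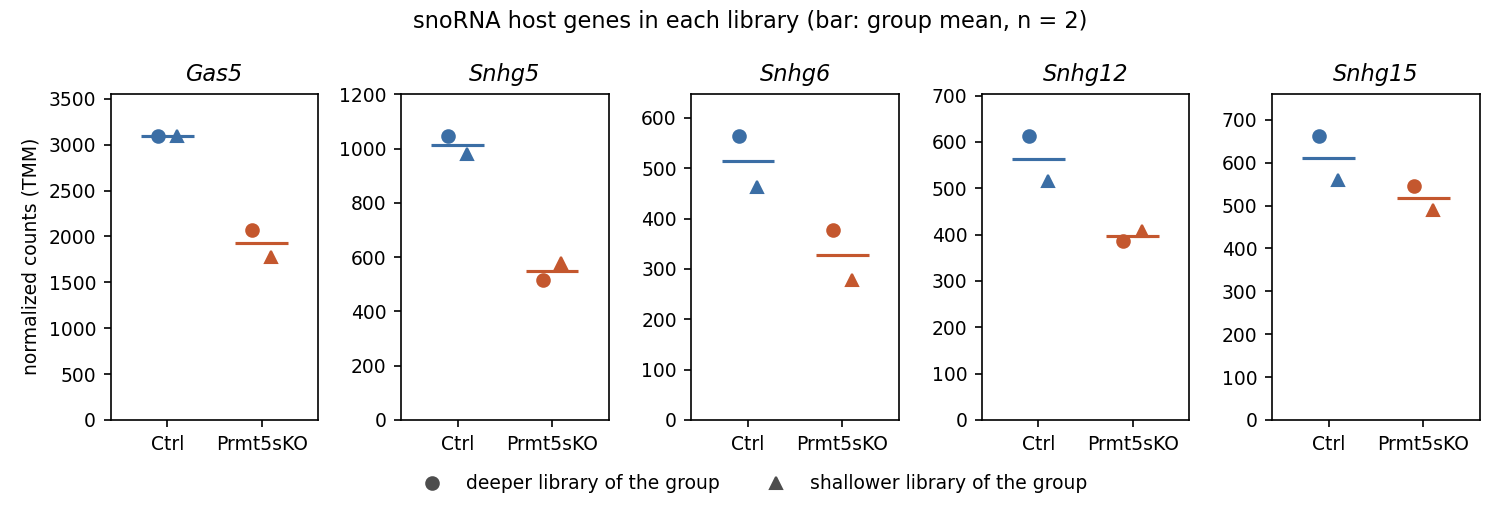
Normalized counts (TMM, linear axis from 0, 1 scale per gene) of the 5 host genes that were tested. Circles are the deeper and triangles the shallower library of each group, and bars are group means (n = 2). In each panel both Prmt5sKO libraries sit under both Ctrl libraries, with the widest relative gap for Snhg5 (1014 against 548) and the narrowest for Snhg15 (611 against 518).

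Tests used limma-voom, with p-values adjusted by Benjamini-Hochberg over the 16212 genes. A call needed an adjusted p no higher than 0.05 together with a 2-fold difference. No host gene was called, and neither was any other gene (0 called, 0%), the smallest adjusted p in limma-voom being 0.193. Prmt5 itself, at a log2 fold change of -3.52, was not called (adjusted p = 0.193 in limma-voom). A gene that was not called may therefore still differ. With DESeq2 and the same limits on fold change and adjusted p, the paper reported genes that changed. Counted by an unadjusted p under 0.05, 2 of the 5 hosts stood out, Gas5 and Snhg5, both lower. That count held for 13% of the genes tested (2101), split into 6.95% lower and 6.01% higher in Prmt5sKO. With 2 libraries against 2, an exact two-sided permutation test of a single value cannot go below 0.333.

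Snhg5 (ENSMUSG00000097195, chromosome 9, 88521050 to 88522929, minus strand) holds the C/D box snoRNAs Snord50a and Snord50b. It had 1046 and 982 normalized counts in Ctrl, and 516 and 579 in Prmt5sKO. The Ctrl libraries lay close together, the Prmt5sKO libraries did too, and the gap between the groups was wider than either spread. The means were 1014 ± 45.8 and 548 ± 44.5 (SD, n = 2 each). This came to a log2 fold change of -0.90 (SE 0.21, 95% confidence interval -1.42 to -0.38), with an adjusted p of 0.256 in limma-voom. Among the log2 fold changes of all genes tested it lay at percentile 10.7, the lowest of the 5 hosts.

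Gas5 (ENSMUSG00000053332, chromosome 1, 161034422 to 161038539, plus strand) is annotated with 10 snoRNA genes, among them Snord47, Snord78 and a pair of nearly identical entries for Snord80, more than any other member. It was the most abundant host, at 3094 normalized counts in each Ctrl library, and at 2073 and 1775 in Prmt5sKO. The Ctrl libraries were nearly equal, and the Prmt5sKO libraries differed by less than the gap to control. The means were 3094 ± 0.14 and 1924 ± 211 (SD, n = 2 each), the first of which is smaller than counting error, so this SD understates the error. On the log2 scale the difference was -0.69 (SE 0.20, 95% confidence interval -1.18 to -0.20, adjusted p = 0.295 in limma-voom).

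Snhg6 (ENSMUSG00000098234, chromosome 1, 9941959 to 9944118, minus strand) holds Snord87. It had 564 and 463 normalized counts in Ctrl and 377 and 279 in Prmt5sKO. Here the spread within each group was wider, and the groups still did not overlap. Its log2 fold change was -0.64 (SE 0.28, adjusted p = 0.394 in limma-voom), and its 95% confidence interval, -1.32 to 0.03, included 0. Over 11.1% of its exon bases Snhg6 overlaps exons of Mcmdc2 on the opposite strand, and Mcmdc2 was low, at 16 to 135 recovered counts per library.

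Snhg12 (ENSMUSG00000086290, chromosome 4, 132308623 to 132311024, plus strand) is annotated with 5 snoRNA genes, Snora44, Snora61, Snord99 and a pair of nearly identical entries for Snora16a. It had 613 and 515 normalized counts in Ctrl and 385 and 407 in Prmt5sKO. The Prmt5sKO libraries lay closer together than the Ctrl libraries. The difference was -0.51 on the log2 scale (SE 0.24, 95% confidence interval -1.09 to 0.07, adjusted p = 0.415 in limma-voom).

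Snhg15 (ENSMUSG00000085156, chromosome 11, 6525591 to 6528760, minus strand) holds the H/ACA box snoRNA Snora9. It had 662 and 559 normalized counts in Ctrl and 547 and 489 in Prmt5sKO. The groups nearly touched, since the shallower Ctrl library was only just above the deeper Prmt5sKO library. At -0.23 its log2 fold change was the smallest of the 5 (SE 0.23, 95% confidence interval -0.80 to 0.33, adjusted p = 0.677 in limma-voom). It was -0.12 without the deeper Ctrl library and -0.13 with scaling by library size only, under which the median of all genes lay at 0.13 and not at 0.02.

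Snhg3 (ENSMUSG00000085241, chromosome 4, 132348014 to 132353686, minus strand), the host of Snora73a and Snora73b, which act in the processing of ribosomal RNA, was not tested. It had 1 recovered count in each Ctrl library, and 1 and 3 in Prmt5sKO, which is at or under a floor of 3 counts per library. Of its exons, 71.5% overlap Gm17300 on the opposite strand and 13.7% overlap Rcc1 on its own strand, and the study's counting left reads over several genes unassigned. Gm17300 had 150 and 109 normalized counts in Ctrl and 45.2 and 70.4 in Prmt5sKO. Whether few Snhg3 transcripts or unassigned reads make this count cannot be told apart. The lowest mean among the tested hosts was 421 normalized counts (Snhg6), whereas that of Snhg3 was 1.55.

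The distance from control was compared between hosts through ratios. A ratio of counts within a library does not depend on the scaling. Snhg5 over Snhg15 was 1.58 and 1.76 in Ctrl and 0.94 and 1.19 in Prmt5sKO. Gas5 over Snhg15 was 4.67 and 5.54 in Ctrl and 3.79 and 3.63 in Prmt5sKO. Snhg6 over Snhg15 was 0.85 and 0.83 in Ctrl and 0.69 and 0.57 in Prmt5sKO, and Snhg12 over Snhg15 was 0.92 and 0.92 in Ctrl and 0.70 and 0.83 in Prmt5sKO. All 4 ratios were lower in both Prmt5sKO libraries, with no test beyond the smallest p given above. They share Snhg15, the host with the smallest difference in these same data, so lower mean ratios follow from that choice.

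Levels between genes were compared as normalized counts per kilobase of merged exons. In Ctrl the order was Gas5 (823 in both libraries), Snhg5 (567 to 605), Snhg15 (411 to 487), Snhg6 (404 to 492) and Snhg12 (214 to 255). Snhg15 and Snhg6 overlapped and do not differ beyond their spread, while the other neighbours in this order did not overlap. In Prmt5sKO the order was Gas5 (472 to 551), Snhg15 (360 to 402), Snhg5 (299 to 335), Snhg6 (243 to 329) and Snhg12 (160 to 170), so that Snhg5 stood above Snhg15 in Ctrl and below it in Prmt5sKO, with overlap between Snhg5 and Snhg6 in Prmt5sKO. The merged exons cover all isoforms of GENCODE M21 (3760 bases in 25 transcripts for Gas5), also those drawn across snoRNAs, which lowers a level per kilobase where such isoforms are rare.

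Snord87 and Snora16a, the snoRNAs with rows inside members, were higher in both Prmt5sKO libraries where their hosts were lower. Snord87 had 1531 and 375 normalized counts in Ctrl, and 2044 and 4671 in Prmt5sKO. The spread inside each group was wide, and the shallower library was lowest in Ctrl and highest in Prmt5sKO. Its log2 fold change was 2.00 (SE 0.69, 95% confidence interval 0.32 to 3.69, adjusted p = 0.332 in limma-voom). Without the shallower Ctrl library it was 1.03, without the deeper Ctrl library 3.04, and with the crossed pairing of libraries as a block it passed the threshold (1.97, adjusted p = 0.0194 in limma-voom).

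Snora16a had 1726 and 1240 normalized counts in Ctrl and 1765 and 4128 in Prmt5sKO. The deeper Prmt5sKO library was thus barely above the deeper Ctrl library, and the shallower Prmt5sKO library stood apart. The fitted log2 fold change was 0.88 (SE 0.43, adjusted p = 0.425 in limma-voom), 0.27 without the shallower Prmt5sKO library, and 1.49 without the deeper one, where it passed the adjusted threshold (adjusted p = 0.0314 in limma-voom, with a single mutant library assumed to vary like the controls).

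Snora24, an H/ACA box snoRNA inside Snhg8, a listed host without a row, had 1275 and 367 normalized counts in Ctrl and 408 and 542 in Prmt5sKO. The groups overlapped, and the log2 fold change of -0.58 (adjusted p = 0.675 in limma-voom) was 0.33 without the deeper and -1.44 without the shallower Ctrl library.

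**Figure D2:**
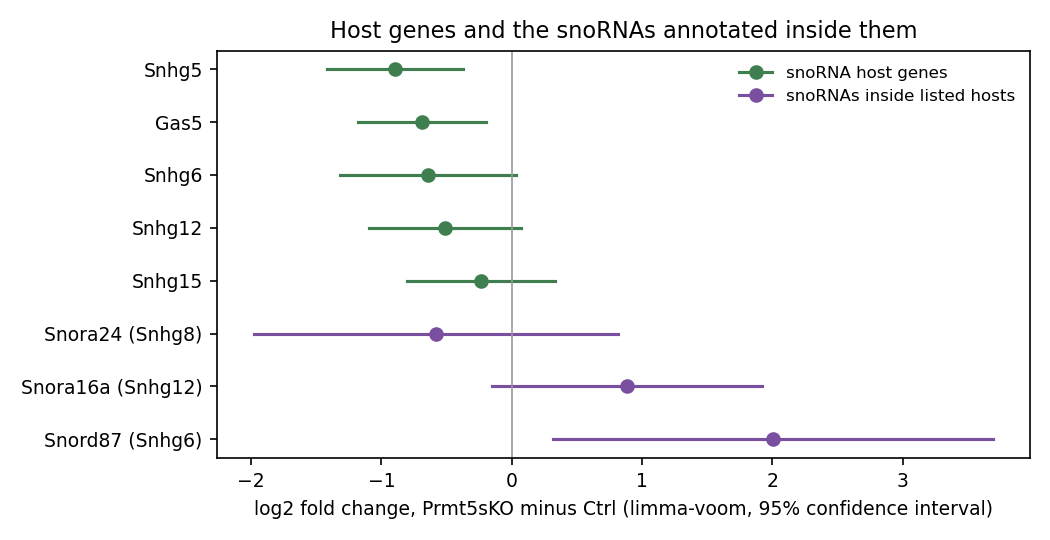
Log2 fold changes, Prmt5sKO minus Ctrl, with 95% confidence intervals from limma-voom for the 5 host genes tested (green) and for the 3 snoRNAs with rows that lie inside listed hosts (purple, host in parentheses). The 5 hosts lie between -0.90 and -0.23, while Snora16a lies at 0.88 and Snord87 at 2.00 with wider intervals.

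Per count of the host, Snord87 stood at 2.71 and 0.81 in Ctrl, and at 5.42 and 16.8 in Prmt5sKO. Snora16a per count of Snhg12 stood at 2.82 and 2.41 in Ctrl and at 4.58 and 10.1 in Prmt5sKO. Each snoRNA was higher and its host lower in both Prmt5sKO libraries, so both ratios had to be higher there. In both ratios the shallower Prmt5sKO library was highest. Non-overlap in either direction held for 48.8% of all genes tested, and the ratios themselves were not tested. Over the 223 snoRNA genes tested the median log2 fold change was 0.80, with 61 higher and 11 lower in both Prmt5sKO libraries, and the rest overlapping. Of all genes tested 25.2% were higher and 23.6% lower in both. The count of higher snoRNAs lay near the first share, and that of lower snoRNAs lay under the second. By an unadjusted p under 0.05 in limma-voom, 23 snoRNA genes were higher and 1 was lower, beside 6.01% and 6.95% of all genes tested. The direction of Snord87 and Snora16a was therefore that of the median snoRNA in the table.

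**Figure D3:**
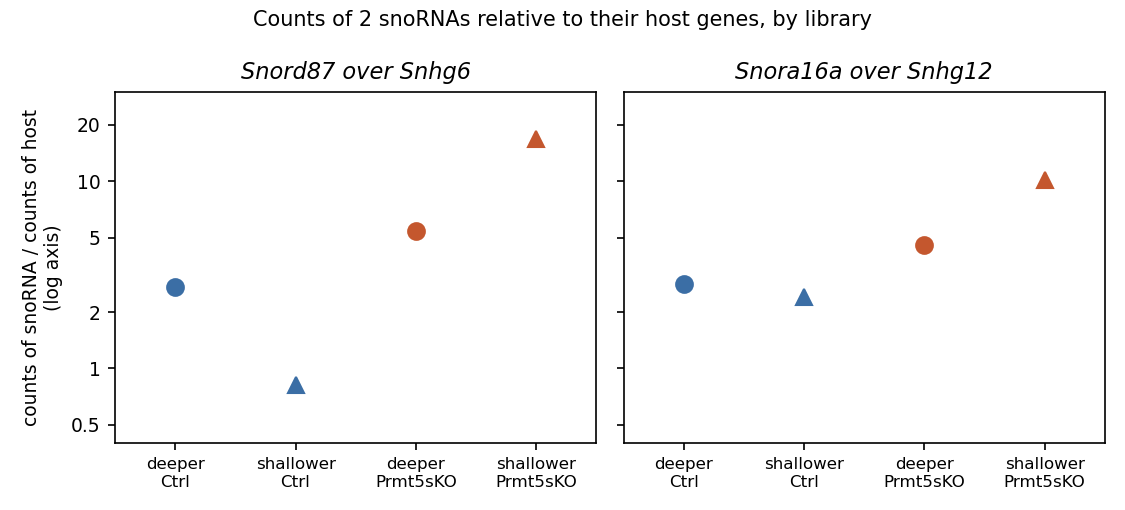
Recovered counts of Snord87 divided by those of Snhg6 (left) and of Snora16a divided by those of Snhg12 (right) in each of the 4 libraries, on a log axis. Blue is Ctrl, orange is Prmt5sKO, circles are deeper and triangles shallower libraries. The Prmt5sKO libraries sit at 5.42 and 16.8 on the left and at 4.58 and 10.1 on the right, above all Ctrl libraries.

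Most of the snoRNAs inside the hosts had no row. The 6 members hold 21 annotated snoRNA genes, of which 2 had a row (9.52%), beside 22.4% of all 1507 snoRNA genes. Of the 21, 19 overlap an exon of some isoform of their host, and 1 of these 19 had a row. None of the 10 snoRNA genes of Gas5 had one. Over all snoRNA genes, those that overlap an exon of another gene on their strand had a row in 39.4% of cases (67 of 170) and the others in 20.2% (270 of 1337). Reads over several genes were left unassigned, yet Snora16a, which lies wholly inside exons of Snhg12, had counts. These overlaps are those of GENCODE M21, which may differ from the annotation used for counting. How many reads of hosts and snoRNAs went unassigned was not tested.

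The other non-coding hosts, a list of 13 names without the members, had 10 rows, and 9 genes passed the filter. In both Prmt5sKO libraries 6 of these were lower and 2 were higher, beside 23.6% and 25.2% of all genes tested. Of the 9 genes 0 passed the threshold, and the median log2 fold change was -0.39. Snhg17 had 1130 and 1058 normalized counts in Ctrl and 809 and 737 in Prmt5sKO (log2 fold change -0.50), and Snhg9 had 71.2 and 50.6 against 17.0 and 36.2 (-1.33). Snhg16, in the table as 1810032O08Rik, was at -0.79 (adjusted p = 0.323 in limma-voom) and Zfas1 at -0.19. The 2 genes higher in both Prmt5sKO libraries were Meg3 (2.03) and Rian (1.71), imprinted neighbours that are maternally expressed. Meg3 had 367 and 75.2 normalized counts in Ctrl and 611 and 837 in Prmt5sKO. Snhg18 was also positive, at 0.45, with overlapping groups. Adjusted p-values of this list were 0.302 or above in limma-voom.

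**Figure D4:**
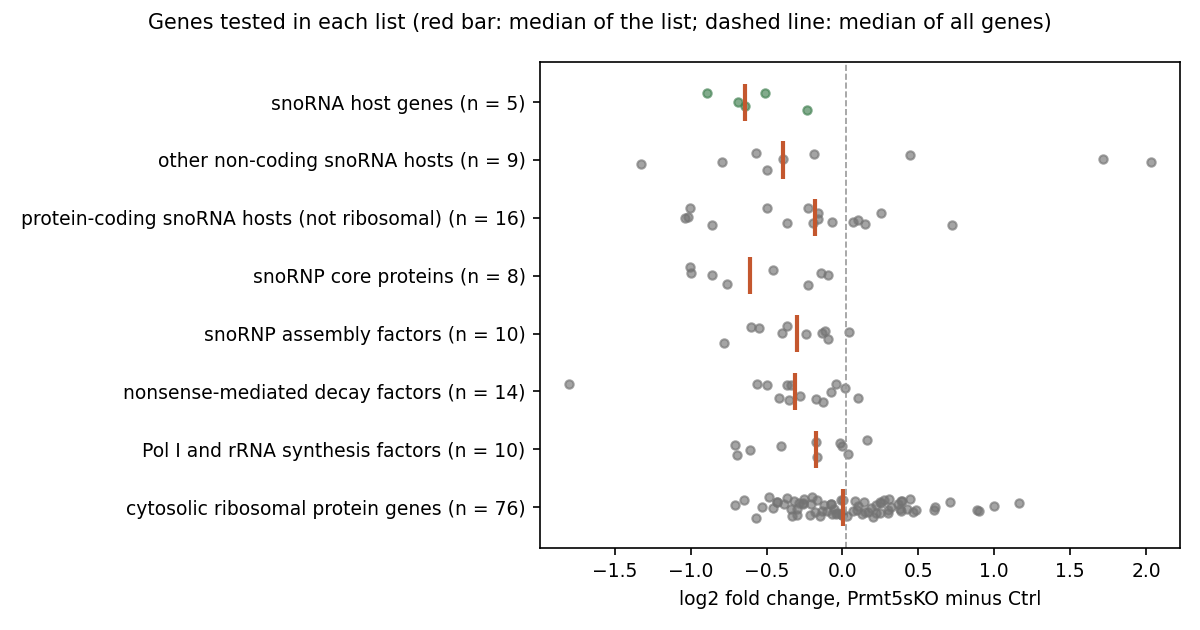
Log2 fold changes, Prmt5sKO minus Ctrl, of every tested gene in the host list and in 7 related lists. Each point is a gene, red bars are list medians and the dashed line is the median of all genes (0.02). The 5 host genes (top, -0.64) and the snoRNP core proteins (-0.61) have the lowest medians, while the cytosolic ribosomal protein genes centre on 0.0016. Single genes of other lists lie lower than any of the 5 hosts.

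The proteins that work on the snoRNAs were set beside the hosts. All 8 core snoRNP proteins had a negative log2 fold change, beside 7872 of all 16212 genes tested. Their median was -0.61, and 5 were lower in both Prmt5sKO libraries, a direction held by 23.6% of all genes tested. Nop56, a C/D core protein whose own introns also hold snoRNAs, had 4011 and 4348 normalized counts in Ctrl and 2189 and 1972 in Prmt5sKO, a log2 fold change of -1.01. Nop58, its partner, was at -0.23 with overlapping groups, and Snu13 was at -0.10. Among 10 assembly factors the median was -0.30 and 4 were lower in both libraries, with Nolc1 at -0.78, Ruvbl2 at -0.60 and Rpap3 at 0.04. In both lists 0 genes passed the threshold. Nop56, Nop58 and Dkc1 are also in the list of protein-coding hosts that follows.

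Protein-coding snoRNA hosts outside the ribosome lay on both sides of control. In both Prmt5sKO libraries 7 of 16 were lower and 3 were higher, beside 23.6% and 25.2% of all genes tested. Their median was -0.18, and 0 passed the threshold. Ncl, which encodes nucleolin, had 17660 and 23773 normalized counts in Ctrl and 11994 and 8365 in Prmt5sKO (log2 fold change -1.04), whereas Tpt1 was at 0.72, Eef2 at 0.15 and Atp5b at 0.07. Of the 10 Pol I and rRNA synthesis factors, 5 were lower in both libraries (median -0.17, 0 past the threshold), with Ubtf at -0.61, Polr1a at -0.41, Polr1b at -0.71 and Taf1b at 0.16.

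Factors of NMD were counted in the same way. In both Prmt5sKO libraries 8 of 14 NMD factors were lower and 0 were higher, beside 23.6% and 25.2% of all genes tested. Their median was -0.31, and 0 passed the threshold. Upf1, the RNA helicase at the centre of NMD, had 1506 and 2683 normalized counts in Ctrl and 503 and 672 in Prmt5sKO. Both Prmt5sKO values were under both Ctrl values, with a log2 fold change of -1.80 (SE 0.34 and, in limma-voom, adjusted p = 0.222). Smg1 was at -0.42, Smg5 at -0.37 and Smg6 at 0.10.

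Ribosomal protein genes, which like several hosts are known to begin with a 5′ tract, centred on no difference. The 76 cytosolic ribosomal protein genes, a list added after the data were seen, had a median log2 fold change of 0.0016. Values ran from -0.70 (Rps12) to 1.16 (Rpl35). In both Prmt5sKO libraries 14 were higher and 18 lower, beside 25.2% and 23.6% of all genes tested. The 4595 tested genes with a tract at a listed start had a median of 0.07 and the 6554 without one a median of 0.03. The difference between these medians and that of the hosts was not tested.

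The 5 protein-coding genes whose levels ran most like the median host over the 4 libraries were Cdc20, Wdr83os, Mtap, Plcb3 and Syde1, at distances of 0.043 to 0.056 on the log2 scale (Euclidean, values centred per gene, 9890 candidates with a mean of at least 100 normalized counts). The median candidate lay at 0.77 and the hosts themselves between 0.17 and 0.38. Cdc20, for example, had 1995 and 1817 normalized counts in Ctrl and 1337 and 1224 in Prmt5sKO. With 4 libraries this is a description of similar values.

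Muscle differentiation markers set the shallower Prmt5sKO library apart. Their summed level (16 genes, contractile and other genes of differentiated muscle) was 52543 and 97406 normalized counts in Ctrl, and 48954 and 455607 in Prmt5sKO. Ttn alone, with overlapping groups, held 39149 and 90033 in Ctrl and 28428 and 171011 in Prmt5sKO. It made up most of each sum other than that of the shallower Prmt5sKO library. Of the 16 genes, 13 were higher in both Prmt5sKO libraries, beside 25.2% of all genes tested, and the rest overlapped. Among the 13, Myog had 1436 and 1189 normalized counts in Ctrl and 3707 and 19508.5 in Prmt5sKO. The deeper Prmt5sKO library was thus above control for these 13 as well. Without the shallower Prmt5sKO library the host median was -0.55, with Snhg5 at -0.97, Gas5 at -0.58, Snhg12 at -0.55, Snhg6 at -0.44 and Snhg15 at -0.16. Without the deeper Prmt5sKO library the host median was -0.80. Each of the 5 hosts was lower in both Prmt5sKO libraries, so leaving out either one could hardly change the direction. The part of the muscle markers in the host values was not tested.

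The sums of the other marker lists were as follows. Satellite cell and myoblast markers, all 8 in the table, summed to between 45022 and 52982 in Ctrl and between 46250 and 76597 in Prmt5sKO. Fibroblast markers summed to between 8645 and 21713 in Ctrl and between 23472 and 36731 in Prmt5sKO, so that both mutant libraries lay above both controls. Of 8 tested fibroblast genes 2 were higher in both Prmt5sKO libraries, beside 25.2% of all genes tested, and the groups of the other 6 overlapped. The 2 were Gsn (gelsolin, log2 fold change 2.14, adjusted p = 0.232 in limma-voom) and Col3a1. Together with Col1a2, whose groups overlapped, they made up most of the sum in every library. The median log2 fold change of the 8 was 0.14, and 4 were negative. These 4, Pdgfra, Ly6a, Dcn and Lum, had at most 115 normalized counts in any library. Tcf21 had no row. Endothelial markers summed to at most 201, haematopoietic markers to at most 623 and Schwann cell markers to at most 143 normalized counts in any library. Tie1, Emcn, Ptprc and Cd3e had no row. The part of the fibroblast markers in the host values was not tested.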

How the data were processed

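RNA of cultured satellite cells was depleted of ribosomal RNA and sequenced on the Ion Torrent Proton platform. The authors trimmed reads with Reaper, aligned them to GRCm38 with STAR 2.4.0a, counted them per gene and compared groups with DESeq2 (STAR version from the submitters' processing notes). Used here were the deposited signal values, which are the authors' group means of counts divided by size factors. The deposited fold changes, their errors and p-values are the authors' own comparison and were not used.

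The counts behind each mean were solved from the steps that its libraries contribute (largest relative residual 5.5e-15). Recovery and fit were tested on simulated data. Libraries were compared in limma 3.58.1 under R 4.3.3 with voom weights (limma-voom). TMM factors were computed by own scripts with 30% of M-values and 5% of A-values trimmed. Genes entered from a mean of 5 normalized counts, and a call needed a Benjamini-Hochberg adjusted p no higher than 0.05 together with a 2-fold difference. No count model was fitted to the recovered counts.

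The members and lists were chosen with earlier results of these data known. The rule named all members and, from each list, the 2 most abundant genes and the largest difference in each direction. The list of ribosomal protein genes was added later, and Snhg16, Snhg18, Zfas1, Rps12 and Rpl35, which are outside the rule, were picked after their values were seen. Markers were summed per list. GENCODE M21 matched 19782 of 20065 identifiers, and promoter sequences are from RefSeq. Alternatives were other scalings, other filters, limma-trend, replicate blocks and leaving out each library.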

Additional observations from a re-analysis of the deposited data

How the results depend on the processing

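All 5 host genes kept a negative log2 fold change in all 12 alternatives run (3 scalings, 2 filters, limma-trend, 2 pairings and 4 fits without 1 library), and 0 of them were called in any. Their adjusted p-values in limma ranged from 0.0851 (Snhg5, crossed pairing) to 0.968. With 1 library left out in turn, Gas5 ranged from -0.80 to -0.58, Snhg5 from -0.97 to -0.81, Snhg6 from -0.88 to -0.44, Snhg12 from -0.62 to -0.39 and Snhg15 from -0.35 to -0.12. The groups did not overlap for any of these hosts, so these fits could hardly change the sign. The median of the hosts ranged from -0.80 (without the deeper Prmt5sKO library) to -0.51 (without the deeper Ctrl library), and under the other alternatives from -0.66 to -0.54.

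The number of genes called over the whole table was 0 in the main test and in 9 alternatives. With 1 library left out it ranged from 0 to 489, with 489 without the deeper and 55 without the shallower Prmt5sKO library. These fits hold 3 libraries and assume that the single library varies like the other group. With no replicate number in the columns, each possible pairing was fitted as a replicate block. Pairing the deeper libraries gave 0 genes and the crossed pairing gave 346, with host medians of -0.65 and -0.64. Across 11487 genes, which are not independent, the within-group differences correlated at -0.30 for the deeper pairing and at 0.30 for the crossed one. The cause was not tested. The 5 hosts had 277 to 2798 counts per library. The spread between the libraries of a group was not above counting error for every host and group (Gas5 in Ctrl, Snhg12 in Prmt5sKO), and for Snhg3 nothing was detectable at this depth.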
